A study of Mus musculus with 42 samples.

Results

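The interferon-inducible GTPases described here are 10 of the 11160 genes measured: the immunity-related GTPases Irgm1, Irgm2, Igtp, Tgtp1, Tgtp2 and Iigp1 and the guanylate-binding proteins Gbp2, Gbp3, Gbp7 and Gbp8. They were chosen by gene symbol among the genes present in the count table, with earlier results of these data known. Tgtp1 and Tgtp2 are similar copies, so their summed counts were also analysed. The RNA came from macrophages that were grown from mouse bone marrow for 6 days with the growth factor M-CSF, detached and plated again. The cells carried a knockout of the membrane protein MS4A4A (KO) or were wild type (WT), and within each genotype they were given 1 µM dexamethasone (Dex), a synthetic glucocorticoid, or vehicle for 2, 8 or 24 h, or were left untreated. This made 14 groups of 3 libraries: KO and WT with Dex at each time, KO and WT with vehicle at each time, and KO and WT untreated. What all groups share is the M-CSF culture and the replating. The vehicle, the removed stretch of Ms4a4a and the number of animals behind the replicates are not given in the labels, so the p-values measure only the spread between these libraries, which may be technical.

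Interferon-inducible GTPases are large GTP-binding proteins of cell-autonomous immunity. Type I interferons induce genes through interferon-stimulated response elements in their promoters, and interferon gamma through gamma-activated sites. In mouse macrophages the effector GTPases Tgtp1, Tgtp2, Iigp1 and the guanylate-binding proteins gather on the membranes around intracellular parasites and bacteria, while the regulatory GTPases Irgm1, Irgm2 and Igtp hold the effectors off the cell's own membranes.

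On the GRCm38 assembly (GENCODE release M21), 5 members lie on chromosome 11. Irgm1 spans 48861968 to 48871683, Tgtp1 48985327 to 48994172 and Tgtp2 49057194 to 49064206, all on the minus strand. Igtp, at 58199556 to 58207591, lies almost wholly within the annotated span of Irgm2, at 58199618 to 58222782, both on the plus strand, so reads in the shared stretch could be counted for either. On the plus strand of chromosome 3, Gbp7 spans 142530342 to 142550149, Gbp3 142560026 to 142573209 and Gbp2 142620602 to 142638008. Gbp8 lies on the minus strand of chromosome 5, from 105014150 to 105139540. All are annotated as protein-coding.

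Stretches around the interferon motifs before a transcript start are shown for the 8 members that had a sequence window. All 10 members were lower with vehicle than untreated at 8 and 24 h, and only some changed with Dex. The part of the motifs in these changes was not tested. The stretches come from RefSeq windows of GRCm38.p6 that run from 250 bases before to 50 after a transcript start. Windows were given for 8 of the 10 members, 9 windows in all, since Gbp3 has a pair of starts. The stretches of Irgm1, Irgm2 and Tgtp1 lie wholly within the GENCODE spans given above. For Irgm2, Tgtp2, Gbp7 and the second Gbp3 start, the bases after the start were not found as an unbroken run in a GENCODE transcript. The response element core was searched as GAAANNGAA, the gamma-activated site as TTCNNNGAA and the glucocorticoid receptor core as ACANNNTGT, each on both strands. Capitals mark matches to the first and the second motif, and each stretch reads 5′ to 3′ on the gene's strand. The coordinates are chr11:48871424-48871462 for Irgm1 (minus strand), chr11:58214890-58214933 for Irgm2 (plus), chr11:58199499-58199542 for Igtp (plus), chr11:48992303-48992346 for Tgtp1 (minus), chr11:49064262-49064305 for Tgtp2 (minus), chr3:142620593-142620625 for Gbp2, chr3:142559988-142560026 for Gbp3 and chr3:142530218-142530304 for Gbp7 (all 3 plus).
Irgm1: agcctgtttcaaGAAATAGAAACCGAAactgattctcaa
Irgm2: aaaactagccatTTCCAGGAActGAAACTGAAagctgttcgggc
Igtp: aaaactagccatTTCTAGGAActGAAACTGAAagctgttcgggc
Tgtp1: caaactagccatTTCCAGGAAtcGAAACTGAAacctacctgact
Tgtp2: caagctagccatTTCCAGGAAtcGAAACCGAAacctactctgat
Gbp2: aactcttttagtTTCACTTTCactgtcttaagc
Gbp3: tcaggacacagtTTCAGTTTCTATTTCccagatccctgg
Gbp7: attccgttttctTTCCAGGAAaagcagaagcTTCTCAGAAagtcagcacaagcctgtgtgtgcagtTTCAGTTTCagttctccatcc

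The response element core was found in 8 of the 9 windows, and in a window of each of the 8 members. It was present in 8.56% of all 32851 windows of the same length. Some member windows are alike, so they are not separate cases. Those of Tgtp1 and Tgtp2 were 80.2% identical where aligned, and the stretches of Igtp and Irgm2 are nearly the same. The matches began 30 and 24 bases before the start in Irgm1, where they overlap, 64 bases before it in Irgm2, 34 in Igtp, 77 in Tgtp1, 70 in Tgtp2, 58 in Gbp2, 52 in Gbp7, and 44 and 38 in Gbp3, again overlapping. A match to the gamma-activated site was present in 5 members, Irgm2, Igtp, Tgtp1, Tgtp2 and Gbp7, and in 8.3% of all windows. In Irgm2, Igtp, Tgtp1 and Tgtp2 it lay upstream of the response element core with 2 bases between them, whereas Gbp7 had 2 such matches, starting 106 and 87 bases before the start. The glucocorticoid receptor core was found in 1 of the 9 windows, at the second Gbp3 start, against 6.85% of all windows. These matches describe letters and do not show binding.

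The libraries held 10140200 to 33528400 estimated counts (median 27998700). Levels are given in CPM, a gene's count relative to the TMM-scaled total of its library, and differences are log2 fold changes with the standard error of edgeR's quasi-likelihood fit over all 42 libraries; a gene was called at a Benjamini-Hochberg adjusted p under 0.05 over all 11160 genes. Ms4a4a averaged 54.7 CPM in KO and 103.6 CPM in WT libraries without Dex (log2 -1.05 ± 0.11, adjusted p = 3.01e-07), so its transcript was lower but measurable in cells labelled KO. The Dex-responsive genes Fkbp5 and Tsc22d3 were higher in every Dex library than in every vehicle library of the same genotype and time. All 7 macrophage markers were measured, with a sum of 17600 to 42000 CPM, and 0 of 8 T and NK cell markers were. The summed levels of the other marker lists were 0.482 to 3.74 CPM for 1 of 4 B cell markers, 0.742 to 6.26 CPM for 3 of 5 dendritic cell markers, 9.48 to 63.6 CPM for 3 of 5 neutrophil markers and 1.29 to 39.7 CPM for 3 of 5 fibroblast markers. Among the 24 h libraries, KO vehicle replicate 2 stood apart in a score over genes called with large Dex differences at that time. These genes were picked from the same libraries, so the gap between Dex and vehicle scores was fixed by that choice. The score of that library was -0.848, against -1.18 to -1.04 in the other 5 vehicle libraries and 0.145 to 0.329 in the Dex libraries. The 24 h results are therefore also given without that library.

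**Figure D1:**
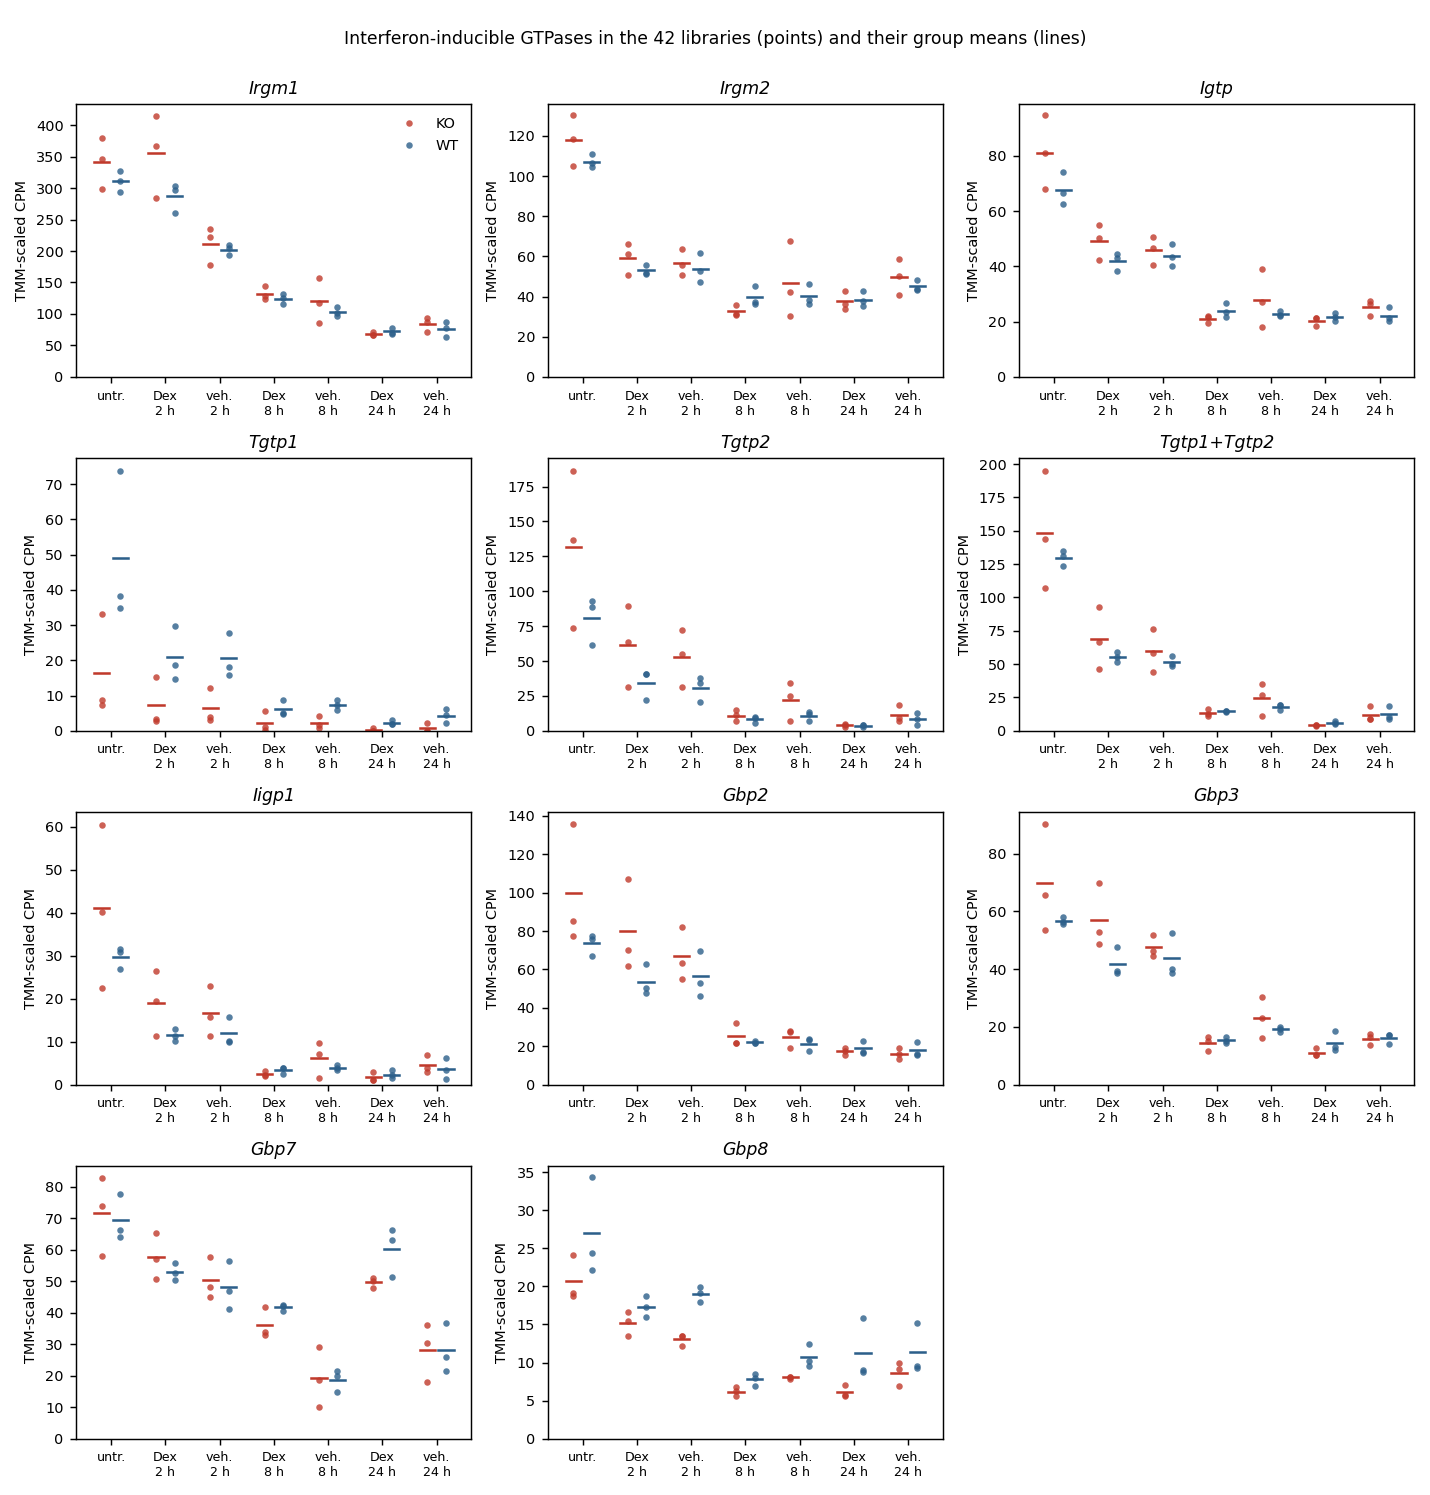
TMM-scaled CPM (vertical axes, from 0) of each gene in the 42 libraries, with KO in red left of WT in blue for untreated cells (untr.), Dex and vehicle (veh.) at 2, 8 and 24 h; points are libraries and lines group means. Untreated libraries held the highest levels of most members, Irgm1 was higher with Dex than with vehicle at 2 h, and Gbp7 at 8 and 24 h.

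Every member but Irgm1 had its highest group mean in untreated macrophages, and all 10 were lower after 24 h in cells given only vehicle. Compared per kilobase of merged exons, Irgm1 had the highest mean level of the 10 members in each of the 14 groups, with a range of 11.8 CPM per kb in KO cells after 24 h of Dex to 61.2 CPM per kb in KO cells after 2 h of Dex. In untreated cells Irgm1 stood at 58.8 CPM per kb in KO and 53.5 in WT, Igtp at 40.2 in KO and 33.5 in WT, Irgm2 at 32.0 in KO and 29.0 in WT, and Gbp2 at 39.6 in KO and 29.2 in WT. Tgtp2 stood at 44.9 CPM per kb in KO and 27.5 in WT, Gbp3 at 21.4 in KO and 17.3 in WT, and Gbp7 at 12.8 in KO and 12.4 in WT. The lowest levels in untreated KO were those of Tgtp1 (5.13 CPM per kb), Gbp8 (6.00) and Iigp1 (7.05), which in untreated WT stood at 15.3, 7.83 and 5.10 CPM per kb. The spread over the 14 group means differed between members. The highest mean was 3.61 times the lowest for Irgm2, 3.82 times for Gbp7, 3.98 times for Igtp, 4.44 times for Gbp8 and 5.20 times for Irgm1, against 6.19 times for Gbp2, 6.25 times for Gbp3, 23.8 times for Iigp1 and 36.2 times for the Tgtp1 and Tgtp2 sum.

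When the 14 groups were ranked by mean CPM, most neighbours in the order overlapped in their libraries. For Tgtp2 and Gbp7 all 13 neighbouring pairs overlapped, for Tgtp1, Igtp, Irgm2, Gbp2 and Gbp8 12 of 13 did, for Iigp1 11, for Irgm1 and Gbp3 10, and for the Tgtp sum 8. Untreated KO was the highest group for Tgtp2, Igtp, Irgm2, Iigp1, Gbp2, Gbp3 and Gbp7, untreated WT for Tgtp1 and Gbp8, and KO with 2 h of Dex for Irgm1. Tgtp1, Igtp, Irgm2, Iigp1, Gbp3 and the Tgtp sum each had such a gap between the untreated WT group and the 2 h group below it.

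Vehicle cells were set against untreated cells, averaged over KO and WT, to describe the course without steroid. At 2 h 9 of the 10 members had fallen, against 6.72% of all genes called lower. At 8 h all 10 had fallen (9.66% of all genes called lower), and at 24 h all 10 (15.4%), also without KO vehicle 24 h replicate 2. The median log2 difference of the members was -0.69, -1.73 and -2.0 at the 3 times, where that of all genes was -0.011, -0.0035 and -0.00064. The untreated libraries serve all 3 comparisons, so these are not independent of each other, and time after replating cannot be told apart from vehicle. Fewer expressing cells and less RNA per cell cannot be told apart in bulk samples. The summed macrophage markers were 33200 to 37900 CPM in KO and 30200 to 39500 CPM in WT after 24 h of vehicle, against 21900 to 26000 CPM in untreated KO and 21100 to 23800 CPM in untreated WT. Within that list 3 of 7 markers rose and 2 fell, with Fcgr1 lowest (-1.81 ± 0.11). Fibroblast markers summed to 5.85 to 12.8 CPM in KO and 4.55 to 13.6 CPM in WT after 24 h of vehicle, against 1.89 to 3.35 CPM in untreated KO and 1.88 to 5.16 CPM in untreated WT, and 2 of 3 rose. The dendritic cell marker Ccr7 (-2.28 ± 0.42) and the neutrophil marker Mpo (-2.63 ± 0.59) fell, each as 1 of 3 measured in its list. The part of these markers in the falls was not tested.

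Among the regulators, Irgm1, which protects mice against mycobacteria, was at 93.4, 87.4 and 71.2 CPM in KO and at 87.0, 78.2 and 63.4 CPM in WT after 24 h of vehicle. In untreated cells it was at 379.9, 299 and 346 CPM in KO and at 293, 312 and 327 CPM in WT. No vehicle library reached an untreated one, and the log2 difference was -2.02 ± 0.11 (adjusted p = 1.83e-16). Igtp, a regulator at the endoplasmic reticulum needed for resistance of mice to Toxoplasma, fell by 1.64 ± 0.11 to 23.8 ± 3.05 CPM with vehicle, against 74.5 ± 11.9 CPM in untreated cells (SD, n = 6 each). Irgm2, a regulator on Golgi membranes, had log2 differences of -1.02 ± 0.12, -1.38 ± 0.12 and -1.25 ± 0.12 at 2, 8 and 24 h. Igtp and Irgm2 share 15.9% and 9.16% of their 31-base words. These words may lie in the overlap of their annotated spans, which was not separated out.

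The 24 h differences farthest from 0 were those of the effectors Tgtp1, Tgtp2 and Iigp1. The Tgtp1+Tgtp2 sum, of GTPases that load early onto parasite vacuoles, was 195, 107 and 144 CPM in untreated KO and 131, 123 and 135 CPM in untreated WT. After 2 h of vehicle it was 76.2, 44.0 and 58.6 CPM in KO and 49.9, 55.9 and 48.8 CPM in WT, and after 24 h 18.4, 8.91 and 8.96 CPM in KO and 18.6, 10.5 and 8.56 CPM in WT. The libraries of the 3 stages did not overlap. The sum differed from untreated by -1.32 ± 0.20, -2.72 ± 0.22 and -3.49 ± 0.23 on the log2 scale at 2, 8 and 24 h (adjusted p = 1.66e-05, 9.44e-12 and 2.66e-14). Iigp1, which lies on the plus strand of chromosome 18 from 60376027 to 60392634 and also coats parasite vacuoles, fell by 1.30 ± 0.29, 2.83 ± 0.32 and 3.09 ± 0.33. Tgtp1 alone was the member not called at 2 h (log2 -1.29 ± 0.49, adjusted p = 0.0767); its call at that time was reached without KO vehicle 2 h replicate 2 (-1.74, adjusted p = 0.029) and without untreated KO replicate 3 (-1.47, adjusted p = 0.048).

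The guanylate-binding proteins had log2 differences between -0.59 and -0.46 at 2 h, nearer to 0 than those of the other members. Gbp2, a prenylated protein that binds parasite vacuoles, was at 19.1, 15.9 and 13.2 CPM in KO and at 22.5, 15.8 and 15.6 CPM in WT after 24 h of vehicle. In untreated cells it was at 136, 77.6 and 85.4 CPM in KO and at 77.4, 76.0 and 67.1 CPM in WT. The groups were far apart, with a log2 difference of -2.33 ± 0.16 (adjusted p = 1.27e-13). Gbp3 followed with -1.97 ± 0.13, whereas Gbp8 reached -1.35 ± 0.13 by 8 h and stood at -1.26 ± 0.13 at 24 h. Gbp7 took another course: it differed from untreated by -1.90 ± 0.17 at 8 h and by -1.32 ± 0.17 at 24 h, with vehicle means of 19.0 CPM at 8 h and 28.2 CPM at 24 h. The change between those times was not tested. At 2 h the calls of Gbp2 and Gbp7 were kept in 5 and 6 of 12 fits without 1 library, and that of Gbp3 in 11. Without untreated KO replicate 1 the 2 h differences were -0.33 for Gbp2 (adjusted p = 0.151), -0.34 for Gbp3 (0.0708) and -0.45 for Gbp7 (0.0832). The Gbp2 and Gbp7 calls also ended without untreated WT replicate 1 (-0.47 and -0.48), WT vehicle replicates 1 (-0.46 and -0.47) and 3 (-0.42 and -0.51) and KO vehicle replicates 2 (-0.43 and -0.51) and 3 (-0.46 and -0.48), and that of Gbp2 without untreated WT replicate 2 (-0.47).

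**Figure D2:**
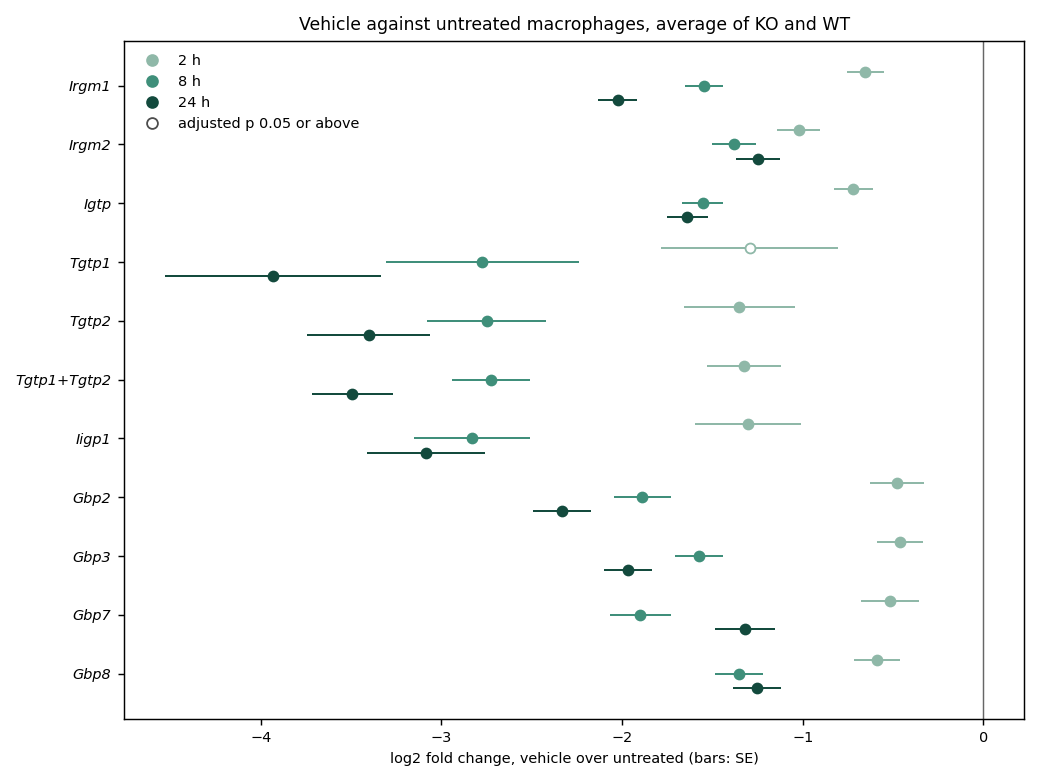
Log2 fold change of vehicle over untreated cells (horizontal axis), averaged over KO and WT, for each gene at 2, 8 and 24 h in darkening green; bars are standard errors and open circles did not pass the test. All values lie below 0, from -0.46 for Gbp3 at 2 h to -3.93 for Tgtp1 at 24 h.

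Other genes of the pathway were counted from lists of related GTPases, ligands and receptors, signalling proteins and inhibitors. Of 13 other interferon-inducible GTPases measured, 10, 11 and 11 fell at 2, 8 and 24 h and 0 rose. Beside this list and those below, 6.72%, 9.66% and 15.4% of all genes were called lower at these times. The shares of all genes called higher were 7.03%, 8.49% and 15.6%. At 24 h Gbp6 differed by -3.05 ± 0.18, Gbp4 by -3.35 ± 0.20, the antiviral GTPase Mx1 by -3.35 ± 0.22 and Gbp9 by -1.49 ± 0.12. Of 12 signalling kinases and transcription factors 9, 7 and 8 fell and 0, 0 and 3 rose. At 24 h Irf7, the factor that amplifies type I interferon responses, averaged 52.9 CPM with vehicle and 820.3 CPM untreated (-3.98 ± 0.17), Stat2 76.7 and 252.8 CPM (-1.72 ± 0.13), and Irf9 57.1 and 110.6 CPM (-0.96 ± 0.07). Of the 4 receptor chains measured 0 fell at each time, and at 24 h Ifngr1, the ligand-binding chain of the interferon gamma receptor, rose by 0.52 ± 0.06 and Ifnar1 by 0.18 ± 0.06. The interferon genes Ifnb1 and Ifng were looked for but were not among the genes of the count table. Of 6 inhibitors 4, 2 and 3 fell and 1, 0 and 1 rose; at 24 h Usp18, which blocks type I receptor signalling, differed by -2.79 ± 0.18 and Socs1 by -0.98 ± 0.16.

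Dex was compared with vehicle at the same time, first averaged over the genotypes. At 2 h 1 of the 10 members passed the test, and it rose, against 8.14% of all genes called higher, 6.41% called lower and 14.5% in either direction. At 8 h 1 rose and 2 fell, where 27.5% of all genes rose and 24.7% fell. At 24 h 1 rose and 4 fell, where 26.8% rose and 26.8% fell. The share of members called, 3 of 10 at 8 h and 5 of 10 at 24 h, was thus below or near the 52.2% and 53.6% of all genes called at those times. The median log2 difference of the members was 0.09, -0.22 and -0.29 at 2, 8 and 24 h, and that of all genes was -0.0047, 0.012 and 0.0076. Dendritic cell markers summed to 5.80 to 6.26 CPM in KO and 4.62 to 6.26 CPM in WT after 8 h of Dex, against 0.943 to 2.20 CPM in KO and 1.20 to 1.96 CPM in WT with vehicle. That sum followed Flt3, which rose (5.11 ± 0.41), while Ccr7 fell (-2.38 ± 0.51) and 1 of the 3 was not called; at 24 h Flt3 was again higher (4.17 ± 0.45) and Ccr7 lower (-5.49 ± 1.06). Fibroblast markers summed to 16.2 to 34.7 CPM in KO and 7.67 to 39.7 CPM in WT after 24 h of Dex, against 5.85 to 12.8 CPM in KO and 4.55 to 13.6 CPM in WT with vehicle. Their part in the results was not tested.

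Irgm1 was the member that rose at 2 h. With Dex it was at 415, 285 and 366 CPM in KO and at 303, 297 and 261 CPM in WT, and with vehicle at 235, 178 and 223 CPM in KO and at 194, 209 and 204 CPM in WT. Every Dex library lay above every vehicle library of its genotype, and the log2 difference was 0.63 ± 0.10 (adjusted p = 1.5e-05), a 1.54-fold higher level. It passed in KO (0.75 ± 0.15, adjusted p = 0.000307) and in WT (0.50 ± 0.14, adjusted p = 0.0198), each time as the only member called. Of all genes, 5.76% rose and 4.63% fell in KO (10.4% in either direction), and 5.85% rose and 3.17% fell in WT (9.02% in either direction). The KO minus WT difference of the Dex effect was 0.24 ± 0.20 (adjusted p = 0.652). The averaged call was kept in each of 12 fits without 1 library, with values between 0.56 and 0.69. In WT alone it was lost without WT vehicle replicate 1, WT vehicle replicate 3, WT Dex replicate 1 or WT Dex replicate 2, which left 0 members called. At 8 h the Irgm1 difference was 0.20 ± 0.10 (adjusted p = 0.0978) and at 24 h -0.19 ± 0.10 (adjusted p = 0.132). Without KO vehicle 8 h replicate 3, which held the highest vehicle level (157 CPM), the 8 h value was 0.32 (adjusted p = 0.00583).

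Gbp7, linked in mice to oxidative defence of macrophages, was the member that rose at 8 and 24 h. At 8 h Dex libraries held 41.9, 33.7 and 32.9 CPM in KO and 42.5, 40.7 and 42.1 CPM in WT, and vehicle libraries 18.6, 9.96 and 29.2 CPM in KO and 20.0, 14.8 and 21.4 CPM in WT. At 24 h Dex libraries held 50.9, 47.9 and 50.1 CPM in KO and 66.4, 51.4 and 63.2 CPM in WT, and vehicle libraries 30.6, 36.3 and 18.1 CPM in KO and 36.8, 21.5 and 26.0 CPM in WT. The Dex and vehicle libraries of a genotype did not overlap at either time. The log2 differences were 1.04 ± 0.17 at 8 h (adjusted p = 3.18e-06) and 0.95 ± 0.17 at 24 h (adjusted p = 9.63e-06), against 0.16 ± 0.16 at 2 h (adjusted p = 0.673). The call passed in each genotype, with 0.92 ± 0.24 in KO and 1.16 ± 0.24 in WT at 8 h, and with 0.81 ± 0.23 in KO and 1.1 ± 0.23 in WT at 24 h. It was kept in each of the 12 fits without 1 library at both times, and without KO vehicle 24 h replicate 2 it was 1.06. The KO minus WT difference of the Dex effect was -0.23 ± 0.33 at 8 h and -0.29 ± 0.33 at 24 h and was not called. The mean Gbp7 level with Dex at 24 h, 55.0 CPM, stood between the 28.2 CPM with vehicle at 24 h and the 70.5 CPM of untreated cells. Gbp3 and Gbp7 share few 31-base words (5.52% of those of Gbp3 and 3.26% of those of Gbp7).

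The summed Tgtp genes fell with Dex at 8 and 24 h. At 24 h the Tgtp1+Tgtp2 sum was 4.19, 3.40 and 4.73 CPM with Dex and 18.4, 8.91 and 8.96 CPM with vehicle in KO, and 7.05, 5.94 and 4.80 CPM with Dex and 18.6, 10.5 and 8.56 CPM with vehicle in WT. Dex libraries lay below vehicle libraries in each genotype without overlap, and the log2 difference was -1.32 ± 0.24 (adjusted p = 2.11e-05). It passed in KO (-1.55 ± 0.35) and in WT (-1.09 ± 0.33), and without KO vehicle replicate 2 the average was -1.42. At 8 h the sum differed by -0.59 ± 0.21 (adjusted p = 0.0203), a call that ended without KO vehicle 8 h replicate 3 (-0.42, adjusted p = 0.108), and at 2 h by 0.15 ± 0.20 (adjusted p = 0.793). Of the copies, Tgtp2 fell at 24 h (-1.38 ± 0.38, adjusted p = 0.00258), and Tgtp1, which had 0 counts in 2 KO Dex and 2 KO vehicle libraries at that time, was at -1.22 ± 0.87 (adjusted p = 0.247). Without KO vehicle 24 h replicate 2 all remaining KO vehicle libraries have 0 Tgtp1 counts, and the fitted Tgtp1 value there, 2.49, is no bound.

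Iigp1, Irgm2 and Gbp3 fell with Dex at 24 h by smaller margins or with wider spread. Iigp1 was at 2.97, 1.01 and 1.18 CPM with Dex and 6.97, 3.78 and 2.93 CPM with vehicle in KO, and at 3.40, 2.15 and 1.60 CPM with Dex and 6.13, 3.34 and 1.39 CPM with vehicle in WT. The groups overlapped in both genotypes, and the log2 difference was -1.0 ± 0.38 (adjusted p = 0.0242). Irgm2 averaged 38.1 CPM with Dex and 47.5 CPM with vehicle (-0.32 ± 0.12, adjusted p = 0.0272), and Gbp3 12.8 and 16.0 CPM (-0.33 ± 0.14, adjusted p = 0.0404). Of 12 fits without 1 library, Iigp1 kept its call in 7, Irgm2 in 8 and Gbp3 in 4. The 5 calls at 24 h became 2 without WT vehicle replicate 1, KO vehicle replicate 1 or KO Dex replicate 2, and 3 without WT Dex replicate 2, WT Dex replicate 3 or KO Dex replicate 3. Without KO vehicle replicate 2, Iigp1 was at -1.08 (adjusted p = 0.0241), Irgm2 at -0.32 (0.0373) and Gbp3 at -0.33 (0.0599). In the average of the genotypes, Gbp2 and Igtp were not called with Dex at any time, with Gbp2 between 0.03 and 0.10 and Igtp between -0.17 and 0.01 on the log2 scale.

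At 8 h Gbp3 and Gbp8 were the members that fell. Gbp3 was at 16.5, 15.0 and 11.8 CPM with Dex and 23.2, 16.0 and 30.3 CPM with vehicle in KO, and at 15.2, 16.4 and 14.5 CPM with Dex and 18.4, 19.4 and 20.1 CPM with vehicle in WT (-0.50 ± 0.13, adjusted p = 0.00194). Gbp8 was at 6.73, 6.25 and 5.55 CPM with Dex and 7.87, 8.11 and 8.15 CPM with vehicle in KO, and at 8.52, 7.94 and 6.90 CPM with Dex and 12.4, 9.50 and 10.2 CPM with vehicle in WT (-0.42 ± 0.14, adjusted p = 0.0103). The groups of Gbp8 did not overlap in either genotype, whereas those of Gbp3 overlapped in KO. Both calls were kept in each of 12 fits without 1 library. Without KO vehicle 8 h replicate 2, which held the lowest level of 8 members among the KO vehicle libraries, 7 members were called. Tgtp2 (-0.90), Igtp (-0.29), Irgm2 (-0.38) and Iigp1 (-0.98) were then among those lower.

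**Figure D3:**
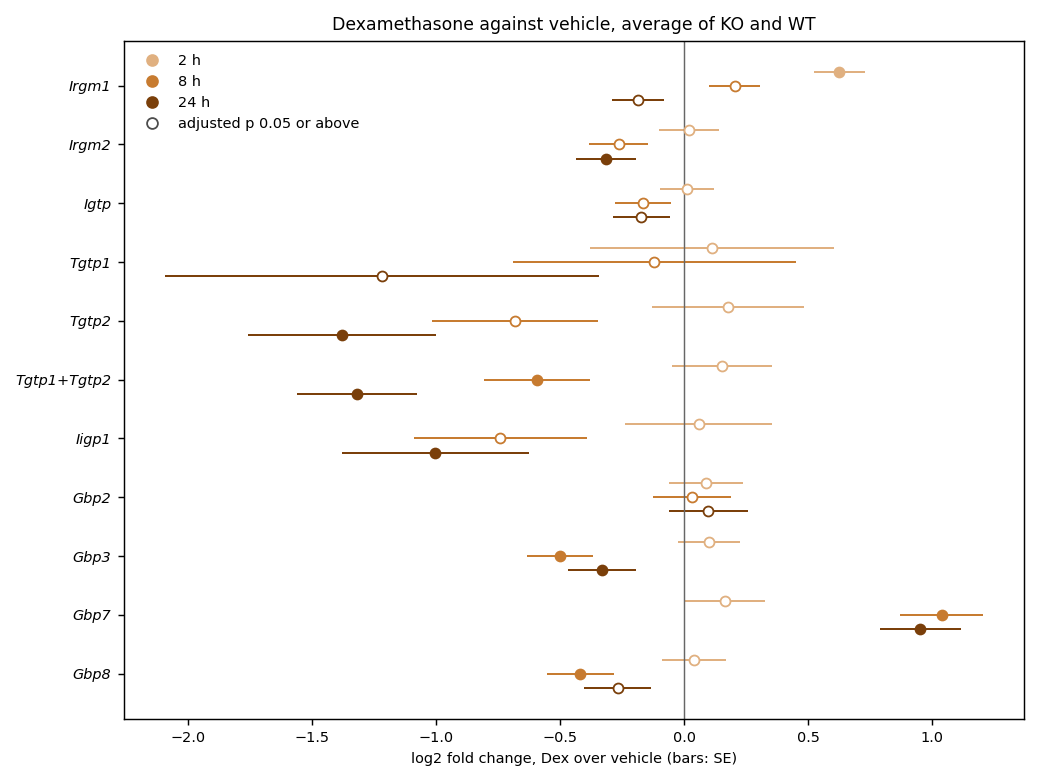
Log2 fold change of Dex over vehicle (horizontal axis), averaged over KO and WT, for each gene at 2, 8 and 24 h in darkening brown; bars are standard errors and open circles did not pass the test. Irgm1 stands above 0 at 2 h (0.63) and Gbp7 at 8 and 24 h (1.04 and 0.95), while the Tgtp1 and Tgtp2 sum lies at -1.32 at 24 h.

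Within KO cells, Dex changed 5 members at 8 h, where 20.6% of all genes rose and 17.9% fell (38.5% in either direction). Gbp7 rose, and Igtp (-0.41 ± 0.16), Irgm2 (-0.51 ± 0.17), Iigp1 (-1.25 ± 0.50) and Gbp3 (-0.67 ± 0.19) fell. The Dex and vehicle libraries of each member that fell overlapped. KO vehicle 8 h replicate 2 held less Igtp (18.0 CPM), Irgm2 (30.1 CPM) and Iigp1 (1.47 CPM) than every KO Dex library at that time. With the replicate number as a block, Tgtp2 (-1.02, adjusted p = 0.0397) and Gbp8 (-0.38, adjusted p = 0.039) also passed. At 24 h Gbp7 rose and Tgtp2 (-1.56 ± 0.54), Iigp1 (-1.36 ± 0.54), Gbp3 (-0.51 ± 0.20) and Gbp8 (-0.51 ± 0.20) fell, again 5 members, where 18.2% of all genes rose and 20.1% fell (38.3% in either direction). Without KO vehicle 24 h replicate 2 the 5 became 2, Gbp7 (1.02) and Tgtp2 (-1.84), with Iigp1 at -1.49 (adjusted p = 0.0519), Gbp3 at -0.49 (0.0831) and Gbp8 at -0.48 (0.0925). They became 1 without KO vehicle replicate 1 or KO Dex replicate 2 and 3 without KO Dex replicate 3. The 5 at 8 h became 3 without KO vehicle replicate 1 and 2 without KO vehicle replicate 3, KO Dex replicate 2 or KO Dex replicate 3.

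Within WT cells, Gbp7 was the only member called at 8 h, where 19.8% of all genes rose and 17.2% fell (37% in either direction), and at 24 h, where 20.7% rose and 21% fell (41.7%). With the replicate number as a block, Gbp8 passed as well at 8 h (-0.45, adjusted p = 0.0116) and Tgtp2 at 24 h (-1.16, adjusted p = 0.048), 2 members at each time. The count was also 2 at 8 h without WT vehicle replicate 2 and at 24 h without WT vehicle replicate 3. Whether the Dex effect differed between KO and WT was tested directly: 0 members and 0% of all genes passed at 2, 8 and 24 h with edgeR, and 0 genes with DESeq2. Unadjusted p-values under 0.05 were found for 0, 1 and 0 members, the 1 being Igtp at 8 h (-0.48 ± 0.23, edgeR adjusted p = 1), and for 986, 133 and 564 genes in all. The members called in KO and not in WT were therefore not shown to respond differently.

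The other interferon-inducible GTPases gave 0, 1 and 1 genes that rose and 0, 3 and 6 that fell with Dex among 13 measured. The share called was thus below that of all genes at 2 and 8 h (14.5% and 52.2%) and near it at 24 h (53.6%). At 24 h Gvin1 differed by -1.31 ± 0.16, Gbp9 by -0.67 ± 0.12, Mx1 by -1.26 ± 0.26 and Gm4070 by -0.76 ± 0.18. Receptor chains moved in different directions. Ifngr1 averaged 254.5 CPM with Dex and 182 CPM with vehicle at 2 h and 707 and 275.4 CPM at 24 h (log2 0.49 ± 0.06 and 1.36 ± 0.06), while Ifngr2, its partner chain, fell by 0.57 ± 0.05 at 2 h and 0.32 ± 0.05 at 24 h, and Ifnar1 fell by 0.71 ± 0.06 at 8 h and 0.47 ± 0.06 at 24 h.

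Among 12 signalling genes, 2, 3 and 4 rose and 2, 2 and 3 fell with Dex at 2, 8 and 24 h, where 14.5%, 52.2% and 53.6% of all genes were called. Irf2, a factor that binds response elements and can repress them, rose at all 3 times (1.05 ± 0.06, 1.20 ± 0.06 and 0.98 ± 0.06). Irf1, an activator at such elements, averaged 28.9 CPM with Dex and 49.7 CPM with vehicle at 2 h (-0.79 ± 0.10). Jak2, a kinase of the interferon gamma receptor, rose by 0.76 ± 0.07 at 8 h. Of 6 inhibitors, 1, 2 and 2 rose and 1, 2 and 2 fell, with Socs3 higher by 1.71 ± 0.27 and Socs1 lower by 1.25 ± 0.19 at 8 h.

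KO was compared with WT over the 4 conditions without Dex. When all libraries counted as samples, 2 of 10 members were called, Tgtp1 and Gbp8, both lower in KO, against 0.108% of all genes called lower, 0.116% called higher and 0.224% in either direction. With the counts of each genotype and replicate number summed over these conditions, 3 sums a side, 0 members and 0 genes passed, and Tgtp1 and Gbp8 were each at an adjusted p of 1, or of 0.675 with the replicate number as a block. Since Ms4a4a, the gene knocked out, did not pass with these sums either, that fit cannot decide on the Tgtp1 and Gbp8 calls. Those calls were made with libraries of the same genotype and number treated as separate samples. The other members were between 0.04 and 0.73 on the log2 scale and not called. Of the other interferon-inducible GTPases, receptor chains, signalling genes and inhibitors 0 were called in the main edgeR fit. There 4 of 13, 0 of 4, 4 of 12 and 0 of 6 had an unadjusted p under 0.05.

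Gbp8 was at 24.2, 18.8 and 19.1 CPM in untreated KO and at 34.3, 24.4 and 22.1 CPM in untreated WT. After 2 h of vehicle it was at 13.5, 13.5 and 12.2 CPM in KO and at 20.0, 18.0 and 19.1 CPM in WT, and after 8 h at 7.87, 8.11 and 8.15 CPM in KO and at 12.4, 9.50 and 10.2 CPM in WT. KO and WT libraries did not overlap at those times with vehicle, whereas they overlapped in untreated cells and after 24 h. The averaged log2 difference was -0.44 ± 0.09 (adjusted p = 0.03), and DESeq2 also called it. The call was kept in 12 of 24 fits without 1 library, with adjusted p between 0.018 and 0.0921 and log2 values between -0.47 and -0.37. The libraries whose omission ended it were WT untreated replicate 1, WT vehicle replicates 1 and 3 at 2 h and at 8 h, WT vehicle 24 h replicate 1, KO untreated replicates 2 and 3, KO vehicle replicate 3 at 2, 8 and 24 h and KO vehicle 8 h replicate 1. After 24 h of Dex, Gbp8 was at 5.55, 5.67 and 7.01 CPM in KO and at 15.8, 9.04 and 8.76 CPM in WT, without overlap (-0.89 ± 0.19, adjusted p = 0.0779). The replicate block gave an adjusted p of 0.00537 there and DESeq2 one of 0.00608. In the main edgeR fit 0 members were called in KO against WT within a condition. Gbp8 after 24 h of Dex was the only member called by DESeq2. The members with an unadjusted p under 0.05 numbered 3 in untreated cells, 4, 0 and 2 after 2, 8 and 24 h of Dex, and 2, 3 and 2 after 2, 8 and 24 h of vehicle, where of the 11160 genes 343, then 947, 177 and 851, and then 495, 218 and 664 had one. The shares of all genes called at an adjusted p under 0.05 were 0% in untreated cells, 0% after 2 h and 8 h of Dex, 0.0448% after 24 h of Dex (0.0358% higher and 0.00896% lower), 0.00896% after 2 h and 8 h of vehicle, all lower, and 0% after 24 h of vehicle.

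**Figure D4:**
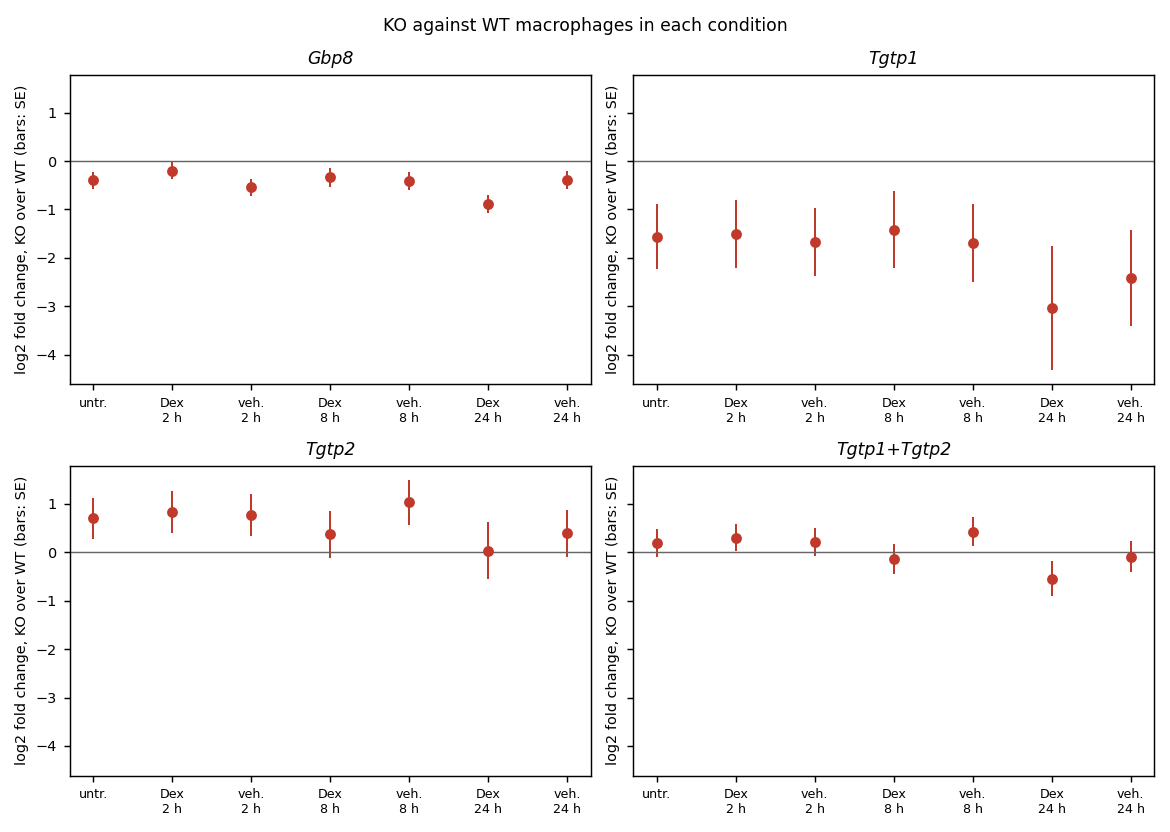
Log2 fold change of KO over WT (vertical axes) in untreated cells (untr.) and with Dex or vehicle (veh.) at 2, 8 and 24 h for Gbp8, Tgtp1, Tgtp2 and the Tgtp1 and Tgtp2 sum; points are fitted values and bars standard errors. Gbp8 and Tgtp1 lie below 0 in each of the 7 conditions, Tgtp2 lies above 0 (0.04 to 1.03), and the sum lies on either side of 0.

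With all libraries counted as samples, Tgtp1 was called lower in KO than in WT without Dex. The Tgtp2 values went the other way without passing the test. The Tgtp1 call did not pass with counts summed per genotype and number. Among the KO libraries, replicate 2 held the highest Tgtp1 level in each condition. Tgtp1 was at 8.71, 33.2 and 7.41 CPM in untreated KO and at 38.3, 35.0 and 73.6 CPM in untreated WT, while Tgtp2 was at 186, 73.6 and 136 CPM in untreated KO and at 92.9, 88.4 and 61.2 CPM in untreated WT. Over the conditions without Dex, the log2 difference was -1.83 ± 0.40 for Tgtp1 (adjusted p = 0.0391), 0.73 ± 0.23 for Tgtp2 (adjusted p = 0.252) and 0.18 ± 0.15 for the Tgtp1+Tgtp2 sum (adjusted p = 0.741). The Tgtp1 call was lost with DESeq2 (adjusted p = 0.0926) and was kept in 9 of 24 fits without 1 library. These were the 8 fits without a replicate 2 library and the fit without WT vehicle 2 h replicate 1. The fitted value without KO vehicle 24 h replicate 2, -3.69, averages in a KO group left with 0 Tgtp1 counts and is no bound. Omission of any other replicate 1 or 3 library ended it, with adjusted p of up to 0.0874. The transcripts Tgtp1-201 (2823 bases) and Tgtp2-201 (2810 bases) are 99.79% identical where aligned, with 6 mismatches, and 83.2% of the 31-base words of Tgtp1 occur in Tgtp2. An estimated count of either copy thus depends on how reads were shared out between them.

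The share of Tgtp1 in the summed Tgtp counts went with genotype and replicate number more than with treatment. Over the 7 conditions it was 0 to 7.37% in KO replicate 1, 23.5 to 44.9% in KO replicate 2 and 0 to 5.42% in KO replicate 3. In WT it was 26.8 to 43.9% in replicate 1, 20.3 to 32.4% in replicate 2 and 38.0 to 60.2% in replicate 3. The summed Tgtp1 counts over 7 libraries were 514 of 11413, 2105 of 6697 and 380.5 of 8536 in KO replicates 1, 2 and 3, and 2712 of 8880, 2460 of 8183 and 2754 of 4901 in WT replicates 1, 2 and 3. KO replicate 2 thus lay within the range of the WT libraries, and KO replicates 1 and 3 lay below every WT library. The 4 libraries with 0 Tgtp1 counts were replicates 1 and 3 of KO after 24 h of Dex and after 24 h of vehicle. Whether libraries with the same number come from the same animal is not given in the labels.

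**Figure D5:**
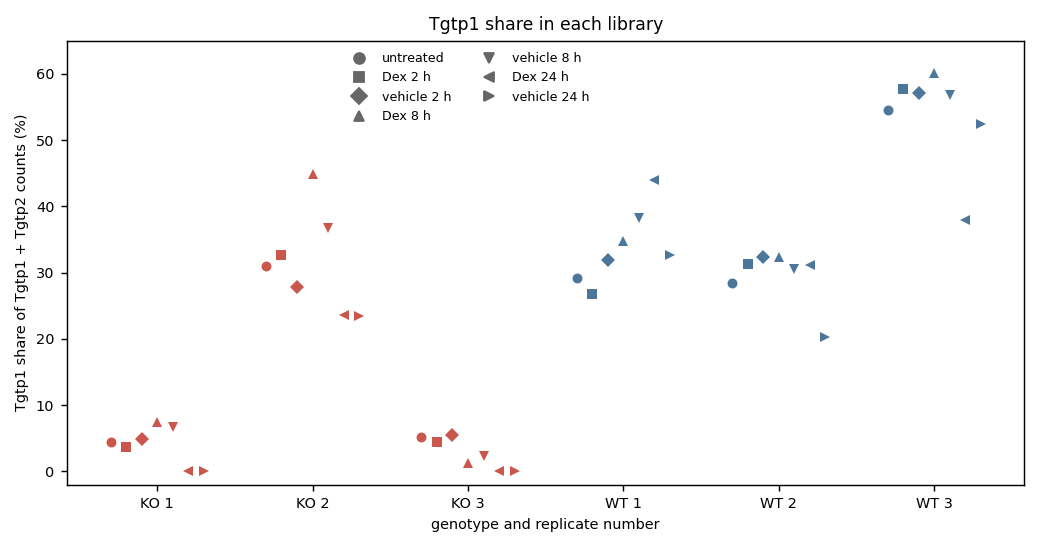
Share of Tgtp1 in the Tgtp1 and Tgtp2 counts (vertical axis, %) in each library, by genotype and replicate number, with 1 symbol per condition. KO replicates 1 and 3 stay at or below 7.37% in all 7 conditions, KO replicate 2 lies at 23.5 to 44.9%, and WT replicates at 20.3 to 60.2%.

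Across the 14 group means of log2 CPM (1 CPM added), the members' profiles were compared with their mean standardised profile. This is a description over groups that share genotypes, times and libraries. The mean holds each member itself, which raises the members' values by construction, while genes outside the members are not in it. Pearson's r was 0.99 for Igtp, 0.98 for Iigp1, 0.97 for Gbp3 and Gbp2, 0.95 for Tgtp2, 0.94 for Irgm1, 0.92 for Gbp8, 0.90 for Irgm2, 0.82 for Tgtp1 and 0.65 for Gbp7. Between pairs of members it ran from 0.43 for Tgtp1 and Gbp7 to 0.99 for Igtp and Iigp1. The 5 genes outside the members with the highest r were Ddx58, which encodes the RNA sensor RIG-I (0.99), the GTPase gene Ifi47 (0.98), Trim30a (0.98), Ifi203 (0.98) and Usp18 (0.98).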

How the data were processed

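The authors deposited expected counts per gene symbol, estimates that need not be whole, for 42 macrophage libraries (14 groups of 3, grouped by title) and 11160 genes. The submitters' processing notes name fastp, HISAT2, Salmon and GRCm38 without versions or roles; annotation, strand handling and gene filter are not stated. The lowest total of a gene is 256 counts, so scarce genes are missing.

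Counts were rounded and tested with edgeR 4.0.16 (R 4.3.3; quasi-likelihood F test, TMM, 14 group means, Benjamini-Hochberg over all genes, threshold 0.05). A second fit held the Tgtp1+Tgtp2 sum in place of both copies. TMM factors were 0.95 to 1.04, and the low-count filter removed 0 genes. Alternatives were leaving out each library, a replicate block, DESeq2 1.42.0 with its own scaling, that scaling in edgeR, all genes kept, genes of 5 CPM or more on average, fits to the compared libraries alone and libraries summed per genotype and number. The code was tested on simulated data.

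Members and lists were chosen with earlier results of these data known. Named genes are the members, up to 4 genes of lowest p per list and comparison, Ms4a4a, Fkbp5, Tsc22d3 and the 5 genes most like the members in profile; single cell type markers were named after their values were seen.

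The main fits did not use the replicate numbers in any comparison, and the replicate block was run only as an alternative. Numbers were judged to pair the libraries where every correlation of same-numbered deviations from the group means exceeded 0.1. This held for Dex in KO at 2 h (lowest 0.151) and 8 h (0.118), Dex in WT at 8 h (0.353) and 24 h (0.29), and KO against WT with Dex at 2 h (0.328) and 24 h (0.102) and with vehicle at 2 h (0.315), 8 h (0.254) and 24 h (0.215). Promoter and transcript searches used RefSeq GRCm38.p6 and GENCODE M21.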

Additional observations from a re-analysis of the deposited data

How the results depend on the processing

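Members called in vehicle against untreated cells numbered 6 to 10 at 2 h and 10 at 8 and 24 h under the alternatives run, and Irgm1 remained the 1 call of Dex at 2 h in KO and in the average. At 8 h the averaged Dex count of 3 became 5 with the replicate block and 3 to 7 without 1 library. There the numbers paired the Dex and vehicle libraries within KO (lowest correlation 0.118) and within WT (0.353). They did not pair them over both genotypes together (lowest -0.0403). At 24 h the averaged count of 5 was 2 to 6 without 1 library. In WT the Dex count of 1 was 0 to 1 at 2 h; at 8 h it was 2 with DESeq2, with median-ratio scaling and with the replicate block, 4 on the compared libraries alone and 1 to 2 without 1 library; at 24 h it was 2 with DESeq2, with the block and on those libraries alone, and 1 to 2 without 1 library. In KO the Dex count of 5 was 3 at 8 h and 9 at 24 h on the compared libraries alone, and 2 to 6 and 1 to 5 without 1 library. KO against WT without Dex gave 2 members, 1 with DESeq2, 0 with summed libraries, 0 with summed libraries and the replicate block (a fit chosen after seeing the data) and 0 to 2 without 1 library. After 24 h of Dex it gave 0, and 1 with DESeq2, with the block and without WT Dex replicate 2. Over all genes the KO against WT average gave 25 calls, 71 with DESeq2, 111 with the block and 0 with summed libraries, and after 24 h of Dex 5, 25 with DESeq2, 17 with the block and 1 on the compared libraries alone. Dex in WT at 24 h gave 4655 and 3101 on those libraries alone, and vehicle at 2 h 1535 and 1007. Signs that turned without 1 library belong to uncalled values: in Dex at 2 h Tgtp1 (-0.51 to 0.56), Tgtp2 (-0.0065 to 0.33), Igtp (-0.031 to 0.059), Irgm2 (-0.026 to 0.072), Iigp1 (-0.091 to 0.21) and Gbp2 (-0.046 to 0.18), at 8 h Tgtp1 (-1.02 to 0.27) and Gbp2 (-0.090 to 0.081), at 24 h Tgtp1 (-4.17 to 2.49), and in KO against WT Gbp7 (-0.070 to 0.11). The cause of these shifts was not tested. At 24 h Tgtp1, Tgtp2 and Iigp1 lay below 5 CPM in every Dex library, and the part of depth in their spread was not tested.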
